A study of Mus musculus with 24 samples.

Results

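The mitochondrial ribosomal protein genes are the nuclear genes named Mrpl or Mrps with a number, which encode the proteins of the large and small subunits of the mitochondrial ribosome. They were taken by name alone, as every row of the deposited table whose symbol is Mrpl or Mrps, a number and at most 1 letter from a to c. This gave 75 of 17811 genes: 48 of the large subunit, 26 of the small subunit and Mrps36, which carries the family name but is now placed in another complex. All 75 passed the filter on low counts, which kept 9328 genes, so no gene of the family was lost to it. The study measured messenger RNA along the jejunal villus, the fold of the small intestine that absorbs nutrients. The epithelium came from 4 mice, all male, C57BL/6, 10 weeks old and fed regular chow. Its cells were sorted by their surface CD73 and CD26 into 6 zones, and each zone of each mouse gave 1 bulk library, so that every zone has 4. Counted down from the tip, which is V6, the labels name V5 middle-tip, V4 middle, V3 bottom-middle, V2 bottom and V1 the most bottom. No agent, engineered allele or other strain was involved, and the comparison was between zones.

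The mitochondrial ribosome translates the proteins that mitochondrial DNA encodes, which are core subunits of the respiratory chain complexes and of the ATP synthase. Its ribosomal RNAs come from mitochondrial DNA, while its proteins are encoded in the nucleus, made in the cytosol and imported. Some of these proteins have counterparts in bacterial ribosomes and others were added in the mitochondrial lineage. Enterocytes are born in the crypt, move onto the villus bottom and travel to the tip, where they are shed, so a zone is also a stage in the life of the cell.

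Library totals ranged from 806541 to 2266261 unique molecular identifiers (UMIs, the tags that count each captured RNA molecule once), with a median of 1502948.5. The family took 0.648% ± 0.0266 of all UMIs in V1 and 0.375% ± 0.0285 in V6 (SD, n = 4). Of the transcripts of the 2 sorting proteins, Nt5e, which encodes CD73, averaged 1.13 CPM in V1, 31.3 CPM in V4 and 269 CPM in V6. Dpp4, which encodes CD26, averaged 147 CPM in V1, 504 CPM in V4 and 437 CPM in V6. It was thus highest in V4 and did not order the upper zones. CPM here are UMI counts scaled to a common library size. Markers of other cell types also moved along the axis. Their calls are those of the slope defined below, in which 22.8% of all genes tested fell and 22.1% rose. All 10 of 10 goblet markers fell, and their summed level was 48487 to 96227 CPM in V1, 5533 to 16667 CPM in V3 and 9577 to 15840 CPM in V6. Of 10 stem and dividing cell markers 6 fell, and their sum went from 268 to 463 CPM in V1 to 133 to 154 CPM in V6. The 10 enterocyte markers summed to 8870 to 24045 CPM in V1 and 65989 to 94390 CPM in V6, and 9 of them rose. The 10 Paneth markers summed to 7198 to 24548 CPM in V1, 6721 to 53528 CPM in V5 and 5319 to 17554 CPM in V6, and 1 of them rose and 0 fell. The 10 leukocyte markers summed to 58.9 to 193 CPM in V1, 137 to 438 CPM in V5 and 166 to 303 CPM in V6, and of 3 tested 2 rose. The 9 enteroendocrine markers in the table summed to 1877 to 2598 CPM in V1, 253 to 964 CPM in V4 and 4713 to 7571 CPM in V6, and 6 of them rose and 1 fell. The 7 tuft markers summed to 4.58 to 23.7 CPM in V1 and 18.5 to 52.9 CPM in V6, and of 4 tested 1 rose. The 8 stroma and blood markers summed to at most 54 CPM in any library, with Col1a1, Col3a1 and Acta2 at 0 in all 4 V1 libraries and Col3a1 and Dcn at 0 in all 4 V6 libraries. The part of these cells in the results was not tested. In bulk libraries, fewer cells of a type and less RNA per cell cannot be told apart.

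As a family, the genes were highest at the villus bottom and lower toward the tip, and none was called higher. The slope, the log2 change per zone from V1 to V6, fell in 53 of the 75 genes at a Benjamini-Hochberg adjusted p under 0.05 over all genes tested (edgeR's quasi-likelihood test). That is 70.7% of the family, where 22.8% of all genes tested fell. No gene of the family rose, where 22.1% of all genes did. At an unadjusted p under 0.05 edgeR also called 0 genes of the family higher, and so did DESeq2 and limma-voom. Of all genes tested, 25.2%, 25.1% and 25.6% were higher at that threshold in edgeR, DESeq2 and limma-voom. The median slope of the family was -0.098, against -0.0047 over all genes tested. Of the 22 genes that did not pass, 17 had a slope below 0 and 5 had one above 0. The change was of moderate size: the median V6 minus V1 difference was -0.54 on the log2 scale, a 1.45-fold lower level at the tip, and the 53 falling genes spanned 1.22-fold to 2.06-fold.

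The summed level of the family set V1 apart from the other zones in each mouse. It was 5669, 5711, 5626 and 5766 CPM in V1 of mice 1 to 4, and 4060, 4213, 3996 and 4332 CPM in V6. The 4 V1 sums spanned 2.45% of their mean and lay above every sum of every other zone. Zone means were 5693 ± 59.6 CPM in V1, 5068 ± 170 in V2, 4622 ± 216 in V3, 4228 ± 97.1 in V4, 4465 ± 283 in V5 and 4150 ± 151 in V6 (SD, n = 4). The ranges of V4, V5 and V6 overlapped one another.

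**Figure D1:**
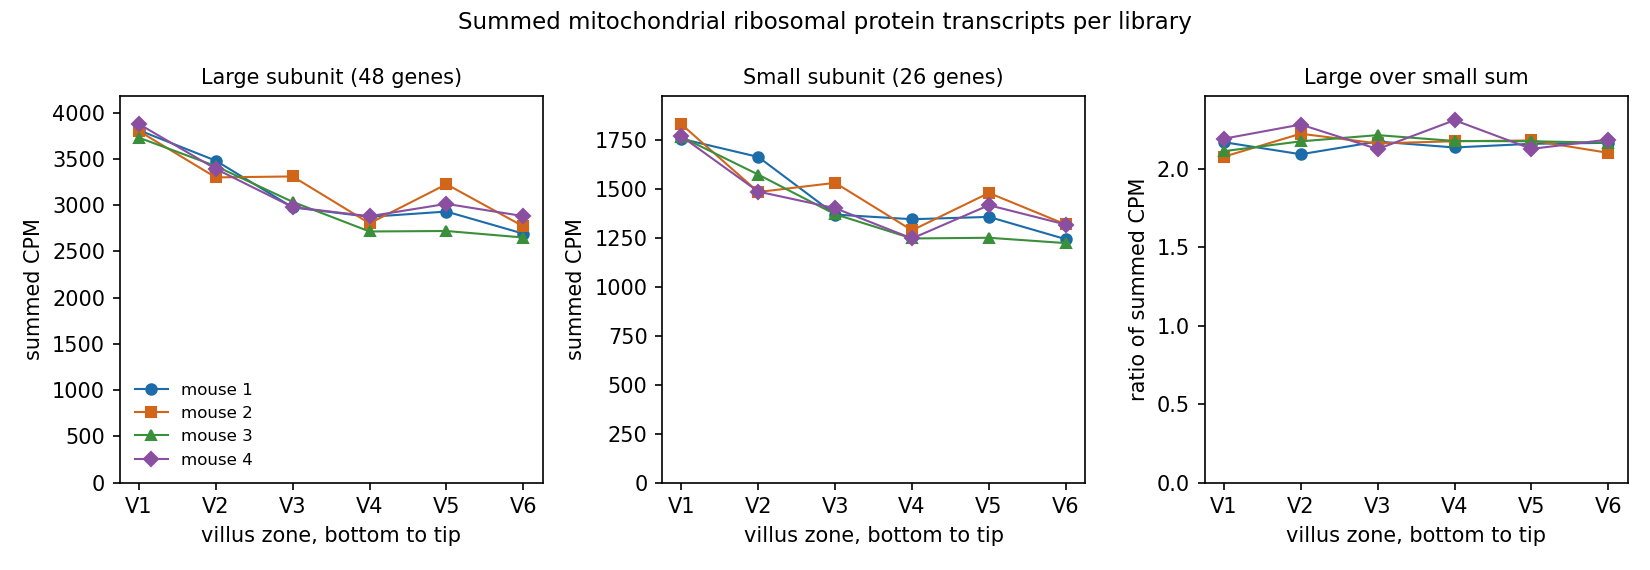
Summed CPM of the 48 large-subunit genes (left) and the 26 small-subunit genes (middle), and their ratio (right), by villus zone from bottom to tip, with 1 line and marker per mouse. Both sums start highest in V1 in all 4 mice and are lower from V4 on, and the ratio stays between 2.08 and 2.31 in the 24 libraries.

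Large and small subunit genes moved side by side. Of the 48 large-subunit genes 33 fell, with a median slope of -0.097, and of the 26 small-subunit genes 20 fell, with a median of -0.11. Their summed levels went from 3804 ± 60.2 to 2748 ± 102 CPM and from 1781 ± 33.7 to 1276 ± 49.7 CPM between V1 and V6. The ratio of the large to the small sum had zone means of 2.14 in V1, 2.19 in V2, 2.17 in V3, 2.20 in V4 and 2.16 in V5, and that of V6 lay among them. These means differed by less than the spread among the 4 V2 libraries, which ran from 2.09 to 2.28. Among proteins with a bacterial counterpart 30 of 45 genes fell (median slope -0.097), and among those added in mitochondria 23 of 29 fell (median -0.11). Whether these classes differ was not tested.

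Within mice the direction was the same. The slope was below 0 in 66, 67, 69 and 70 of the 75 genes in mice 1 to 4, with medians of -0.12, -0.091, -0.11 and -0.079. In 61 genes (81.3%) it was below 0 in each of the 4 mice, where 30.6% of all genes tested were. The 4 V6 libraries all lay below the 4 V1 libraries in 42 genes (56.0%), where 16.5% of all genes did, and in no gene of the family did they all lie above, where 17.9% of all genes did. The same mouse gave all 6 zones, and with the mouse as a block in the model 58 genes fell (77.3%, against 27.8% of all genes), among them all 53.

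**Figure D2:**
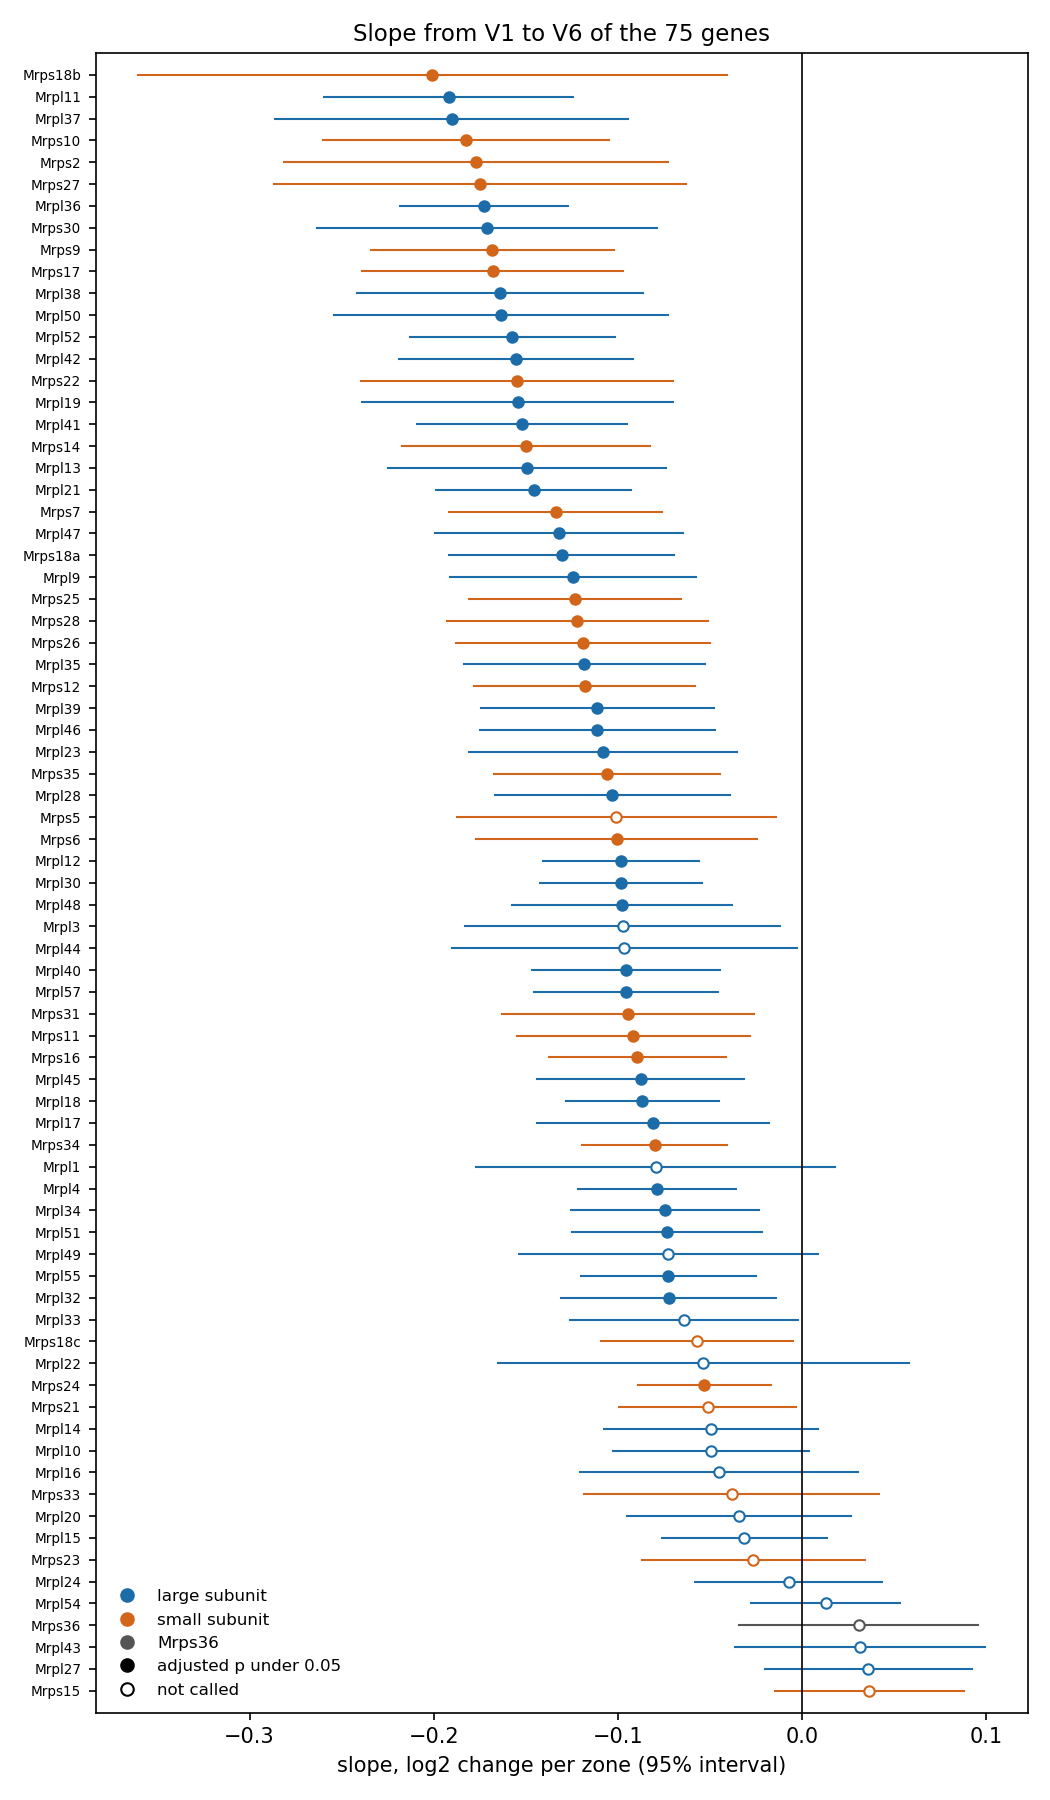
Slope of each of the 75 genes, as log2 change per zone from V1 to V6 with its 95% interval, ordered from the steepest fall at the top. Filled points have an adjusted p under 0.05 (53 genes, all below 0) and open points do not (22 genes), and the last 5 at the bottom lie above 0.

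Most of the change lay in the lower villus. V4 minus V1 was called lower in 45 genes (60.0%, against 17.5% of all genes) and higher in 0 (against 19.0%), with a median of -0.55. V6 minus V1 was called lower in 48 of the 75 genes (against 18.6% of all genes) and higher in 0 (against 20.2%). V6 minus V4 was called in 0 genes in either direction, where 0% of all genes were lower and 0.450% higher, and its median was -0.027. edgeR, DESeq2 and limma-voom also found 0 genes of the family in this comparison at an unadjusted p under 0.05. Over all genes, edgeR found 1.08% lower and 3.28% higher, DESeq2 0.986% and 2.95%, and limma-voom 0.911% and 3.26%. With shares this low, the 0 says little about the family. Median steps between neighbouring zones were -0.21 from V1 to V2, -0.14 from V2 to V3, -0.16 from V3 to V4, 0.073 from V4 to V5 and -0.13 from V5 to V6. The step from V4 to V5 was upward in 54 genes, and each other step was downward in 54 to 64. Of the single steps, edgeR called 0 in the family at the adjusted threshold. Over all genes it called 0.0858% lower and 1.43% higher from V1 to V2, 0.118% and 0.172% from V2 to V3, 0% and 0.0643% from V3 to V4, 0% in both directions from V4 to V5, and 0% and 0.268% from V5 to V6. For V1 to V2, 12 genes were lower at an unadjusted p under 0.05, where 4.85% of all genes were, and DESeq2 and limma-voom each called 1 at the adjusted threshold. V1 held the highest zone mean in 60 genes, while V6 held the lowest in 33 and V4 in 25.

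Whether the pace of change itself differed between the lower and the upper villus depended on the model. The contrast of the log2 change per zone from V4 to V6 with that from V1 to V4 was called in 0 genes of the family, where 1.84% of all genes were called lower and 0.954% higher. At an unadjusted p under 0.05, 15 genes of the family had the less steep upper part, where 7% of all genes did and 9.41% had the steeper one. DESeq2 gave 12 (against 6.45% of all genes) and limma-voom 14 (against 6.27%), and both also called 0 after adjustment. With the mouse as a block, 9 of the 75 genes (against 5.87% of all genes) passed in that direction and 0 in the other (against 9.32%). They were Mrps17, Mrpl52, Mrpl42, Mrps14, Mrps28, Mrps26, Mrps16, Mrpl1 and Mrpl33, and they were named because they are all that passed. A test of any difference among the 6 zones called 35 genes (46.7%, against 27.4% of all genes), and 50 with the block (66.7%, against 48.6%). The count of 35 dropped when mouse 1, 3 or 4 was left out. It was 11 of 75 without mouse 1 (against 14.7% of all genes), 14 without mouse 3 (against 18.3%) and 12 without mouse 4 (against 15.5%). These shares are near those of all genes. The count without mouse 2 is not given here.

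The calls depended on V1. Without it, the slope over V2 to V6 was lower in 5 genes (6.67%, against 2.85% of 8970 genes), which were Mrps9, Mrpl12, Mrpl36, Mrpl21 and Mrpl34, and higher in 0 (against 9.61%). The median slope over V2 to V6 was -0.078 in the family, with 67 of 75 slopes below 0, and -0.0090 over all genes. Without V1 and V2 the slope was lower in 0 of 74 genes (against 0.0231% of 8643 genes) and higher in 0 (against 2.57%). Its median was then -0.045 in the family, with 60 of 74 slopes below 0, and -0.0095 over all genes. The goblet sum given above made most of its drop over those same zones, and its part in the result was not tested.

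Scaling set the size of the change and, for slopes above 0, its direction too. With libraries scaled by their total UMIs alone, the median slope over all genes moved from -0.0047 to -0.071, and the all-gene calls from 2126 lower and 2063 higher to 3720 lower and 1217 higher. The family then fell in 70 genes, the 53 among them, with a median of -0.16 and all 75 slopes below 0. Since total UMI scaling lowered slopes in general, it could not have reversed a gene that already fell. Relative to the median of all genes, the family's median slope was -0.094 with the main scaling and -0.093 with total UMIs. A rescaling of libraries moves all genes together, so this difference was bound to change little. Without mouse 1 the slope was called lower in 34 genes and higher in 0, where 14.0% and 16.3% of all genes were. V6 minus V1 was then lower in 27 (against 10.6%) and V4 minus V1 in 28 (against 12.3%), and both were higher in 0 (against 13.6% and 13.9%). The median slope without mouse 1 was -0.097 in the family and -0.0067 over all genes.

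Among the steepest and most firmly measured falls was Mrpl36 (ENSMUSG00000021607), which encodes a small zinc-binding protein of the large subunit with a bacterial counterpart. The gene lies on GRCm38 at chr13:73328513-73332178 (+ strand). Its level was 129, 98.4, 115 and 118 CPM in V1 of mice 1 to 4, 72.9, 58.5, 62.4 and 62.6 CPM in V4, and 57.2, 58.0, 58.7 and 59.3 CPM in V6. The 4 V6 libraries spanned 2.11 CPM and lay below every V1 library. The slope was -0.17 ± 0.022 (SE, adjusted p = 1.42e-06), and the V6 minus V1 difference was -0.98 ± 0.13, a 1.97-fold lower level at the tip (adjusted p = 4.26e-06). Mrpl36 shares exon bases with Ndufs6, a complex I subunit, and whether counting used strand is not given in the sources used here, so reads of the 2 genes may not be fully separated.

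Mrpl11 (ENSMUSG00000024902, chr19:4962147-4966999, + strand) encodes the protein at the base of the stalk to which translation factors bind. It measured 44.8, 43.5, 53.2 and 44.6 CPM in V1 and 20.7, 27.7, 21.2 and 25.4 CPM in V6. The groups did not overlap, and mouse 3 was high in V1. Its slope was -0.19 ± 0.033 (adjusted p = 5.68e-05) and its level in V6 was 1.96-fold lower. Mrpl12 (chr11:120484613-120489065, + strand) encodes the stalk protein itself, which recruits translation factors and also binds the mitochondrial RNA polymerase. It measured 174, 161, 152 and 158 CPM in V1 and 109, 99.96, 115 and 123 CPM in V6, again without overlap, with a slope of -0.099 ± 0.021 (adjusted p = 0.000499). Mrpl12 was 1.44-fold lower in V6. It shares exon bases with Gm16755.

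Mrpl52 (ENSMUSG00000010406, chr14:54426909-54429756, + strand), a protein added in mitochondria, was among the genes with the highest UMI level. It measured 199, 213, 223 and 238 CPM in V1 and 135, 84.8, 117 and 139 CPM in V6. All 4 V1 libraries were above all V6 libraries. The slope was -0.16 ± 0.027 (adjusted p = 5.9e-05), and V6 was 1.83-fold lower. Mrpl41, also an addition, went from 45.3 ± 6.21 to 25.1 ± 1.98 CPM (slope -0.15 ± 0.028, adjusted p = 0.00012). Mrpl21, which has a bacterial counterpart, went from 101 ± 8.46 to 59.0 ± 13.4 CPM (slope -0.15 ± 0.026, adjusted p = 8.31e-05) and shares exon bases with Ighmbp2.

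The additions Mrpl37, Mrpl38 and Mrps30 were also among the steep falls of the large subunit, of which not all are described here. Mrpl37 had 48.5, 60.6, 40.8 and 40.4 CPM in V1 and 20.1, 29.4, 17.0 and 35.2 CPM in V6 (slope -0.19 ± 0.046, adjusted p = 0.00203). Mrpl38, which carries a domain of the phosphatidylethanolamine-binding protein family, had 72.7, 62.9, 57.5 and 67.2 CPM in V1 and 31.0, 31.9, 37.5 and 38.4 CPM in V6 (slope -0.16 ± 0.038, adjusted p = 0.00123). Mrps30, named for the small subunit but placed by structures in the large one, had 51.6, 53.8, 28.5 and 35.1 CPM in V1 and 24.3, 24.4, 17.7 and 21.5 CPM in V6 (slope -0.17 ± 0.045, adjusted p = 0.0036). In none of the 3 did V1 and V6 overlap. Mrps30 shares exon bases with B430218F22Rik.

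In the small subunit, the steep falls of genes with a bacterial counterpart were those of Mrps9, Mrps10, Mrps17 and Mrps2, and the additions Mrps27 and Mrps18b, described further on, had slopes of a like or larger size. Mrps9 (ENSMUSG00000060679, chr1:42851233-42905683, + strand) had 60.1, 72.6, 56.3 and 80.3 CPM in V1 and 23.7, 41.2, 34.0 and 41.7 CPM in V6 (slope -0.17 ± 0.032, adjusted p = 0.000194). Mrps10 had 44.8, 57.2, 48.3 and 31.5 CPM in V1 and 23.7, 26.9, 17.7 and 20.2 CPM in V6 (slope -0.18 ± 0.038, adjusted p = 0.000457). The 2 zones did not overlap in either gene, and their V6 levels were 1.92-fold and 2.06-fold lower. Mrps17 went from 76.2 ± 7.62 CPM in V1 to 39.9 ± 11.1 in V4 and 45.2 ± 7.36 in V6 (slope -0.17 ± 0.034, adjusted p = 0.000409). Mrps2 had few molecules, 5 to 41 UMIs per library, and went from 18.0 ± 4.29 to 8.73 ± 0.959 CPM (slope -0.18 ± 0.051, adjusted p = 0.00664). The call of Mrps2 did not hold without mouse 1 (adjusted p = 0.0724) or mouse 4 (adjusted p = 0.0583), nor with libraries thinned to the smallest total (adjusted p = 0.302).

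Mrps27 (ENSMUSG00000041632, chr13:99344786-99415562, + strand), an RNA-binding pentatricopeptide repeat protein added to the small subunit, had 27.9, 36.0, 22.3 and 14.9 CPM in V1 and 9.12, 15.1, 16.3 and 13.0 CPM in V6. The zones overlapped through the low V1 library of mouse 4. Its slope was -0.17 ± 0.054 (adjusted p = 0.0114), and -0.14 (adjusted p = 0.115) without mouse 1. It shares exon bases with 6430562O15Rik. Mrps16, in which inherited defects impair mitochondrial translation, was lowest in V4: 75.4, 84.6, 85.4 and 80.9 CPM in V1, 58.2, 38.2, 60.8 and 46.3 CPM in V4, and 63.3, 53.8, 55.2 and 61.2 CPM in V6. Both upper zones lay below V1 in every library, and the slope was -0.090 ± 0.023 (adjusted p = 0.00342).

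**Figure D3:**
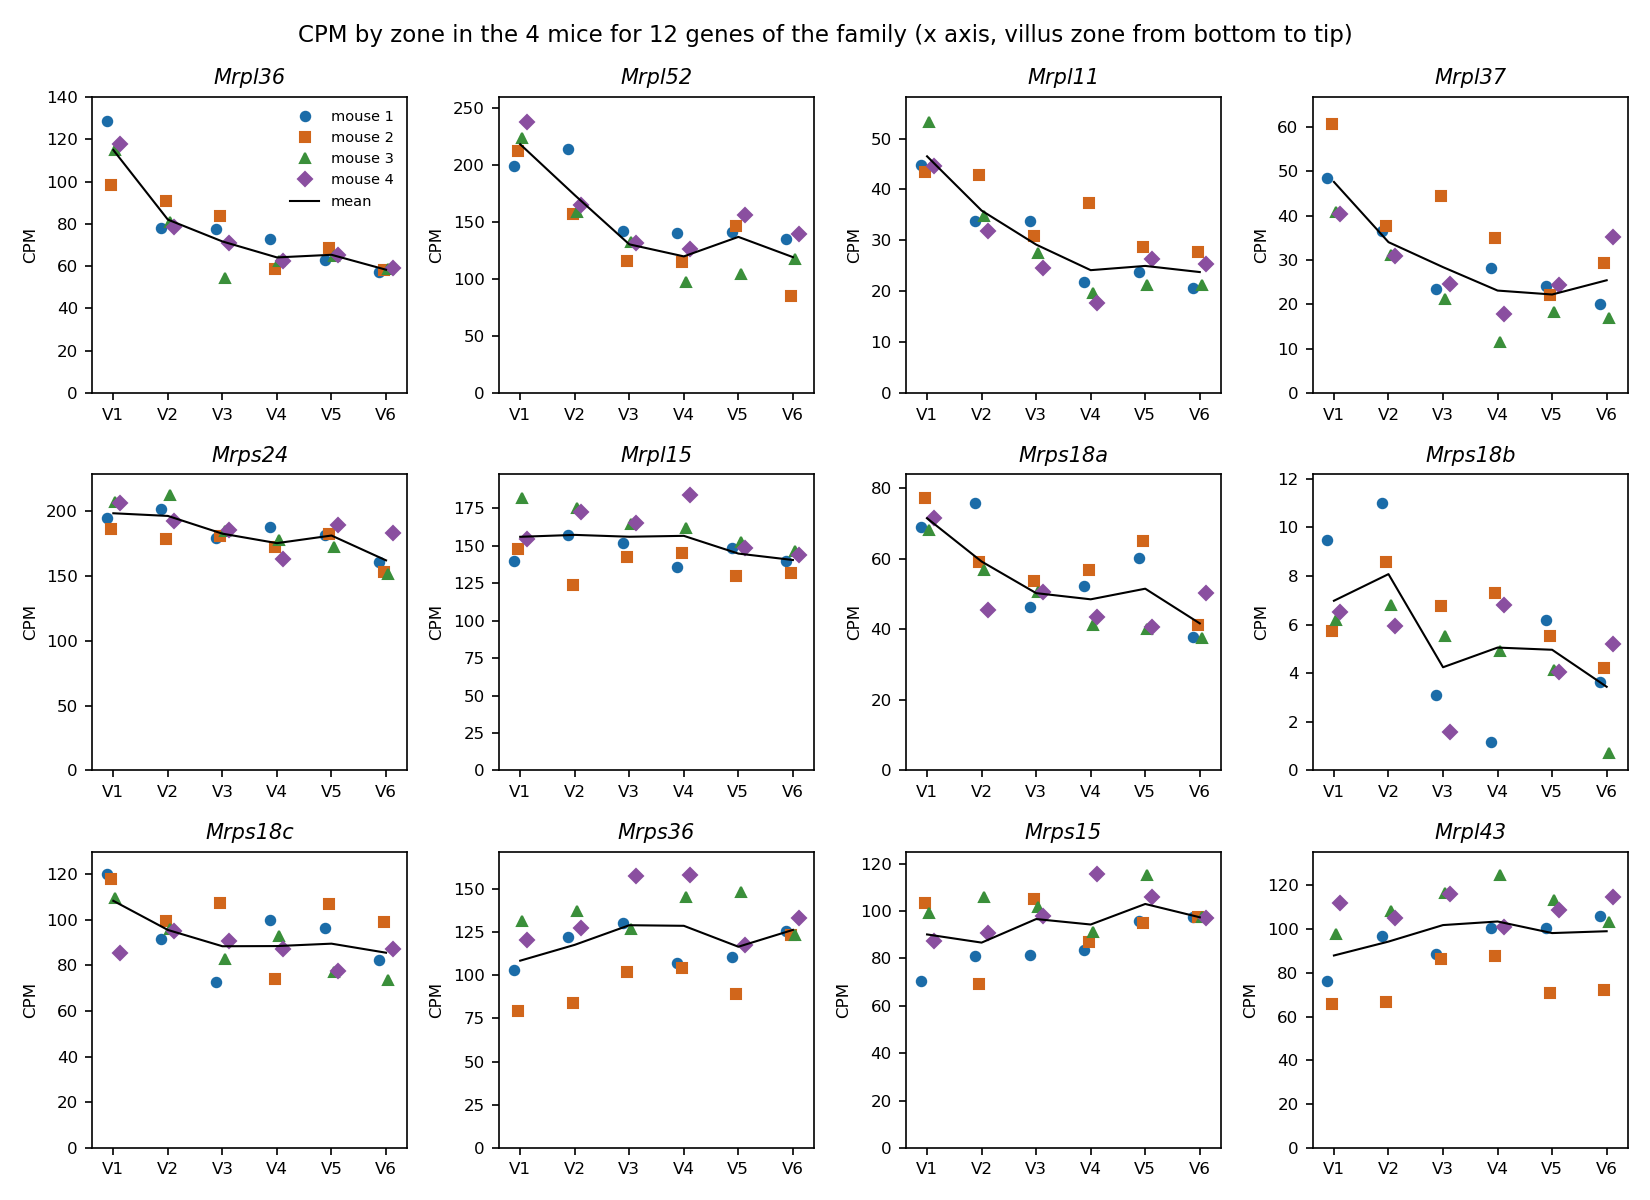
CPM of 12 genes of the family in the 24 libraries, by villus zone from bottom to tip, with 1 marker shape per mouse, a line through the zone means and a y axis that starts at 0 in each panel. Mrpl36, Mrpl52, Mrpl11 and Mrpl37 drop from V1 to V4 and then level off, Mrpl15 stays near 141 to 157 CPM, and Mrps36, Mrps15 and Mrpl43 show no drop.

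Promoter sequence around the annotated start was read for the family. Genes of mitochondrial biogenesis often carry sites for the transcription factors NRF1, the ETS family (which includes GABP) and YY1. RefSeq windows of 250 bases before to 50 bases after the start (GRCm38.p6) matched 66 of the 75 genes. The stretches printed are examples that hold such letters and were not picked by a stated rule. Of the steep falls described above, Mrpl11, Mrps10, Mrps2, Mrps30, Mrps17 and Mrpl41 had no ETS, NRF1 or YY1 letters in their windows. The lines give the 110 bases before and 30 bases after the start, 5′ to 3′ on the gene's strand, with capitals for ETS, NRF1 and YY1 letters on either strand (GC and CCAAT boxes, also searched, stay in lower case). They come from chr14:54426799-54426938 (+) for Mrpl52, chr1:42851123-42851262 (+) for Mrps9, chr13:99344676-99344815 (+) for Mrps27, chr11:120484527-120484666 (+) for Mrpl12 and chr19:45006413-45006552 (- strand) for Mrpl43, which did not fall.
Mrpl52: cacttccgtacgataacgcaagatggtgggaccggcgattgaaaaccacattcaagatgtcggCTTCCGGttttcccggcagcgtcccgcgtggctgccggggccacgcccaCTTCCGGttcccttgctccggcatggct
Mrps9: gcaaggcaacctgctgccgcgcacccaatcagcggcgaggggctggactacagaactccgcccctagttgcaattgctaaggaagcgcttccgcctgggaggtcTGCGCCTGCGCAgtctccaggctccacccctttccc
Mrps27: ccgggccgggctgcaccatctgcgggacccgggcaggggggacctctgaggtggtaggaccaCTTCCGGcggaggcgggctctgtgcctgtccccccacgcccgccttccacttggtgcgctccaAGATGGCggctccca
Mrpl12: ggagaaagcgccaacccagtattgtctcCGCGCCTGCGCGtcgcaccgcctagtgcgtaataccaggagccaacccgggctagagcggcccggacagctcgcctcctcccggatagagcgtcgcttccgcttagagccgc
Mrpl43: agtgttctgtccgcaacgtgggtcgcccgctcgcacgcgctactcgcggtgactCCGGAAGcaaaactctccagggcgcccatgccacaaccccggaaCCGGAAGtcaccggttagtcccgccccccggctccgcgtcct
The capitals mark the ETS letters CCGGAAG or their reverse complement in Mrpl52, Mrps27 and Mrpl43. In Mrps9 and Mrpl12 they mark the reverse complement of the NRF1 consensus, and near the 3′ end of the Mrps27 stretch the YY1 core letters AGATGGC.

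Over both strands of the 300-base windows, the ETS letters CCGGAAG stood in 24 of 66 genes of the family (36.4%), against 9.93% of 27025 genes with a window and 22.6% of the 6641 among them that were tested here. The NRF1 consensus, 12 letters with ambiguous positions, stood in 9 (13.6%, against 3.07% and 7.66%), and the YY1 core letters AGATGGC in 12 (18.2%, against 7.31% and 9.16%). No ETS, NRF1 and YY1 matches overlapped one another, and 39 genes had at least 1 of the 3. The GC box letters GGGCGG stood in 33 of 66 (against 38.2% and 70.0%), overlapping the ETS letters in 2, and the CCAAT letters in 25 (37.9%, against 41.1% and 43.2%). Among the genes of the family that fell, 15 of 46 had the ETS letters, 7 had the NRF1 consensus and 11 the YY1 letters. Among the uncalled genes the numbers were 9, 2 and 1 of 20. A match describes letters only, and a gene without one lacks only these letters in this window. These shares were not tested.

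Of these factors, Yy1 itself was called higher toward the tip (8.22 ± 2.31 CPM in V1, 17.7 ± 9.99 CPM in V6, slope 0.22 ± 0.064, adjusted p = 0.0084), a call that total UMI scaling did not hold (adjusted p = 0.0512). Gabpb1, a GABP subunit, had a slope of -0.077 ± 0.046 (adjusted p = 0.18). Among 8 tested regulators of nuclear genes of mitochondria, Myc, a driver of cell growth, was the only one that fell (38.7 ± 28.3 CPM in V1, 9.67 ± 3.13 CPM in V6, adjusted p = 0.0101), and Yy1 and Esrra rose. The slope of Esrra, an orphan nuclear receptor that partners with PGC-1 coactivators, was 0.065 ± 0.026 (adjusted p = 0.0454), but -0.00044 (adjusted p = 0.99) with total UMI scaling. Ppargc1a, which encodes PGC-1 alpha, averaged 17.4 ± 9.91 CPM at V1 against 27.9 ± 13.4 CPM at V6 (adjusted p = 0.322).

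Some of the uncalled genes had slopes above the family's median. In 9 of the 22 uncalled genes the 95% interval of the slope lay wholly above the family's median of -0.098: Mrpl20, Mrpl15, Mrps23, Mrpl24, Mrpl54, Mrps36, Mrpl43, Mrpl27 and Mrps15. These intervals are not adjusted for the number of genes, and the median comes from the same slopes. Whether the 9 form a distinct group was not tested. Mrps15 (ENSMUSG00000028861, chr4:126046925-126055532, + strand), with a bacterial counterpart, had 70.6, 104, 99.0 and 87.4 CPM in V1 and 97.3, 97.4, 97.6 and 97.1 CPM in V6. The 4 tip libraries spanned 0.517 CPM and lay inside the V1 range. The slope of Mrps15 was 0.037 ± 0.025 (95% interval -0.015 to 0.088, adjusted p = 0.239). Mrpl43 (ENSMUSG00000025208, chr19:45004829-45006442, - strand), an addition, had 76.4, 65.8, 97.7 and 112 CPM in V1 and 106, 72.2, 103 and 115 CPM in V6, higher at the tip in each mouse but with overlapping groups (slope 0.032 ± 0.033, adjusted p = 0.452). Mrpl27, whose bacterial counterpart reaches the peptidyl transferase centre, averaged 79.6 ± 9.03 CPM at V1 against 90.3 ± 6.47 CPM at V6 (slope 0.036 ± 0.027, adjusted p = 0.294). Mrpl54 had 128 ± 9.92 and 127 ± 7.77 CPM (slope 0.013 ± 0.020, adjusted p = 0.62). Mrps15, Mrpl43 and Mrpl27 had a slope above 0 in all 4 mice, and Mrpl54 in 3. With total UMI scaling the 4 slopes lay between -0.053 and -0.029, and that of Mrpl54 was then called lower (adjusted p = 0.0361). Mrpl43 shares exon bases with Peo1, and Mrpl27 with Eme1. These 4 were named because they are, with Mrps36, all the genes with a slope above 0.

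Mrps36 (ENSMUSG00000061474, chr13:100735955-100744659, - strand) stood with them. Its protein, once listed with the small subunit, is now known as an adaptor of the 2-oxoglutarate dehydrogenase complex of the tricarboxylic acid cycle. It had 103, 79.5, 131 and 120 CPM in V1 and 125, 123, 123 and 133 CPM in V6, with overlapping groups. Its slope was 0.031 ± 0.032 (95% interval -0.034 to 0.096, adjusted p = 0.446) and was above 0 in all 4 mice, but -0.034 (adjusted p = 0.326) with total UMI scaling. The enzymes of that complex are Ogdh, Dlst and Dld, and they were looked up because of Mrps36. Ogdh rose from 249 ± 57.9 to 442 ± 101 CPM (slope 0.15 ± 0.036, adjusted p = 0.00203) and Dlst from 90.0 ± 28.7 to 151 ± 18.1 CPM (slope 0.11 ± 0.035, adjusted p = 0.0119), while Dld, shared with other complexes, had 72.0 ± 6.05 and 67.3 ± 20.3 CPM (adjusted p = 0.271). With total UMI scaling the rises of Ogdh (adjusted p = 0.0647) and Dlst (adjusted p = 0.227) were no longer called, and Dld was called lower (adjusted p = 0.0101). Pseudogene rows named Mrps36-ps1 and Mrps36-ps2 held 729 and 45 UMIs against 4420 for Mrps36, and reads of such near copies may be split between them.

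The 3 Mrps18 paralogs, which descend from the gene of 1 bacterial protein, occupy different places in the mitochondrial ribosome, and their levels differed as well. Mrps18a, placed in the large subunit, had 69.0, 77.2, 68.0 and 71.3 CPM in V1 and 37.7, 41.2, 37.5 and 50.2 CPM in V6. The groups did not overlap (slope -0.13 ± 0.030, adjusted p = 0.0011). Mrps18c, which takes the position of the bacterial protein in the small subunit, had 120, 118, 109.5 and 85.6 CPM in V1 and 82.1, 99.1, 73.6 and 87.3 CPM in V6, with overlap (slope -0.057 ± 0.025, adjusted p = 0.069). With the mouse as a block it was called lower (adjusted p = 0.0286). Mrps18b, an additional copy in the small subunit, was the gene of the family with the fewest molecules, 1 to 25 UMIs per library and a mean of 5.46 CPM. It went from 6.98 ± 1.70 to 3.44 ± 1.94 CPM and its slope was -0.20 ± 0.077 (adjusted p = 0.0381). That call was lost in 10 of the settings that left out a mouse or library, with adjusted p from 0.0515 to 0.173, and it shares exon bases with Gm16279. Differences among the 3 slopes were not tested.

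Several of the genes with the highest UMI levels moved less than the middle of the family, and Mrpl52 and Mrpl12 are described above. Mrps24, the highest at a mean of 183 CPM, had 194, 186, 207 and 206 CPM in V1 and 161, 153, 151 and 183 CPM in V6, a 1.22-fold lower level without overlap (slope -0.053 ± 0.017, adjusted p = 0.0162). Its call was lost without mouse 1 (adjusted p = 0.0673), without mouse 3 (adjusted p = 0.181) and with no filter on low counts (adjusted p = 0.113). Mrps21 averaged 177 ± 26.2 CPM at V1 against 147 ± 14.5 CPM at V6 (adjusted p = 0.0769), and with the mouse as a block it was called lower (adjusted p = 0.0222). Mrpl15 did not pass, with 156 ± 18.3, 157 ± 23.6, 156 ± 10.8, 157 ± 21.0, 145 ± 10.0 and 141 ± 6.37 CPM from V1 to V6 (slope -0.031 ± 0.022, 95% interval -0.076 to 0.013, adjusted p = 0.247). Mrpl15 was called lower with total UMI scaling (slope -0.097, adjusted p = 0.000342) and when only genes with a mean of 20 CPM or more were kept (-0.050, adjusted p = 0.0242). Mrpl34 peaked in V2 at 162 ± 29.6 CPM and went to 117 ± 8.73 CPM in V6 (slope -0.074 ± 0.025, adjusted p = 0.0172), a call lost without mouse 1, 3 or 4 (adjusted p = 0.051, 0.145 and 0.161) and without V1 of mouse 4 (adjusted p = 0.0588). Across the 75 genes, Pearson's r between mean log2 level and slope was 0.43, a description over genes that share the same 24 libraries, and lower levels have wider intervals. The 53 falling genes had a median level of 47.5 CPM and the 22 others one of 76.9 CPM.

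The rest of the mitochondrial translation apparatus was read from lists drawn up for this family. Their counts stand against the 22.8% of all genes tested that fell and the 22.1% that rose. Of 4 tested mitochondrial ribosomal proteins with other names 3 fell: Chchd1 (79.8 ± 6.36 to 49.3 ± 2.45 CPM, adjusted p = 0.00464), Gadd45gip1 (82.6 ± 14.8 to 41.5 ± 11.8 CPM, adjusted p = 0.00621) and Dap3 (53.8 ± 7.60 to 35.4 ± 8.33 CPM, adjusted p = 0.0191), and the fourth, Aurkaip1, did not pass (93.2 ± 5.18 to 78.4 ± 5.63 CPM, adjusted p = 0.0803). Ict1, the older symbol of Mrpl58 and a peptide-release factor within the large subunit, also fell (88.4 ± 5.60 to 56.2 ± 10.8 CPM, adjusted p = 0.0066). Of 15 translation factors and cofactors 7 fell (46.7%) and 1 rose (6.67%). The elongation factor Tufm fell from 89.0 ± 6.55 to 61.6 ± 14.5 CPM (adjusted p = 0.000296), its exchange factor Tsfm from 44.7 ± 12.9 to 22.8 ± 5.21 CPM (adjusted p = 0.0024) and the messenger RNA binding protein Slirp from 108 ± 10.0 to 75.2 ± 5.37 CPM (adjusted p = 0.000775). Trub2, a pseudouridine synthase family protein of mitochondria, rose from 12.3 ± 2.62 to 23.5 ± 5.56 CPM (adjusted p = 0.00141; 0.0514 with total UMI scaling). The median slope of the 15 was -0.10.

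Of 20 assembly and ribosomal RNA modification factors 7 fell and 0 rose, with a median slope of -0.12. Rbfa, which binds the small subunit as it matures, went from 34.3 ± 7.33 to 19.2 ± 4.19 CPM (adjusted p = 0.00744), and the helicase Ddx28 from 8.85 ± 1.60 to 3.31 ± 1.64 CPM (adjusted p = 0.00191). Of 13 genes of mitochondrial transcription and genome maintenance 7 fell (53.8%) and 0 rose (median -0.15). Those that fell include Tfam, which packages mitochondrial DNA and starts its transcription (30.3 ± 6.42 to 14.7 ± 4.22 CPM, adjusted p = 0.00516), and the single-strand DNA binding protein Ssbp1 (32.2 ± 8.31 to 15.7 ± 3.39 CPM, adjusted p = 0.000524). Of 14 mitochondrial aminoacyl-tRNA synthetases, which charge the transfer RNAs, 9 fell (64.3%) and 0 rose (median -0.15). Those that fell include Cars2 (20.9 ± 1.81 to 9.52 ± 1.77 CPM, adjusted p = 0.00109) and Fars2 (50 ± 7.44 to 27.3 ± 2.44 CPM, adjusted p = 0.00257). The zeros in these 3 lists hold for the slope in edgeR's quasi-likelihood test, and with total UMI scaling too. In single contrasts of that test, Polg2, a subunit of the mitochondrial DNA polymerase, was higher in V6 than in V1 (0.68 ± 0.25 on the log2 scale, adjusted p = 0.0372), and the protease subunit Afg3l2 was higher in V4 than in V1 (0.39 ± 0.15, adjusted p = 0.0476). These 2 were named after their values were seen, as the upward calls of the 3 lists in V6 minus V1 and V4 minus V1.

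The products of the organelle's own genome went the other way. Of 11 tested mitochondrially encoded protein genes 10 rose (90.9%, against 22.1% of all genes tested) and 0 fell (against 22.8%). Their median slope was 0.27, against 0.20 with total UMI scaling, where 9 rose (against 1217 of 9328 genes). Mitochondrial transcripts made up 3.31% ± 0.886 of all UMIs at the villus bottom (V1), against 9.45% ± 2.87 in V4 and 8.10% ± 1.21 in V6. The RNAs of the ribosome itself are among them. mt-Rnr2, the large-subunit ribosomal RNA, rose from 2089 ± 812 to 11011 ± 5784 CPM (slope 0.38 ± 0.10, adjusted p = 0.0051), and mt-Rnr1, the small-subunit one, had 1218 ± 831 and 7248 ± 3972 CPM (slope 0.36 ± 0.15, adjusted p = 0.0599). Both slopes were above 0 in all 4 mice. The libraries capture RNA by its poly(A) tail, so these 2 values follow the tailed fraction of the ribosomal RNAs.

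Set beside other gene sets, the family's fall lay between the cytosolic ribosome and the respiratory chain. Of 77 cytosolic ribosomal protein genes 76 fell (98.7%, against 22.8% of all genes tested), with a median slope of -0.18. Of 71 nuclear genes for subunits of complexes I, III, IV and V 13 fell (18.3%) and 3 rose (4.23%), with a median of -0.020. Those shares were below the 22.8% and 22.1% of all genes tested. Of 4 complex II genes edgeR called 0 in either direction. With total UMI scaling, 77, 49 and 2 were the corresponding counts of cytosolic genes that fell and of respiratory genes that fell and rose. Of all 9328 genes tested, 3720 then fell and 1217 rose. As the log2 change of summed CPM from V1 to V6 in mice 1 to 4, the family gave -0.48, -0.44, -0.49 and -0.41 and the cytosolic ribosome -0.94, -1.21, -1.01 and -0.94. The nuclear respiratory subunits gave 0.027, 0.22, -0.20 and -0.073, and the mitochondrially encoded proteins 2.20, 1.69, 0.97 and 1.08. In each mouse the family's value lay between those of the cytosolic ribosome and the nuclear respiratory subunits. The difference between these sets was not tested.

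**Figure D4:**
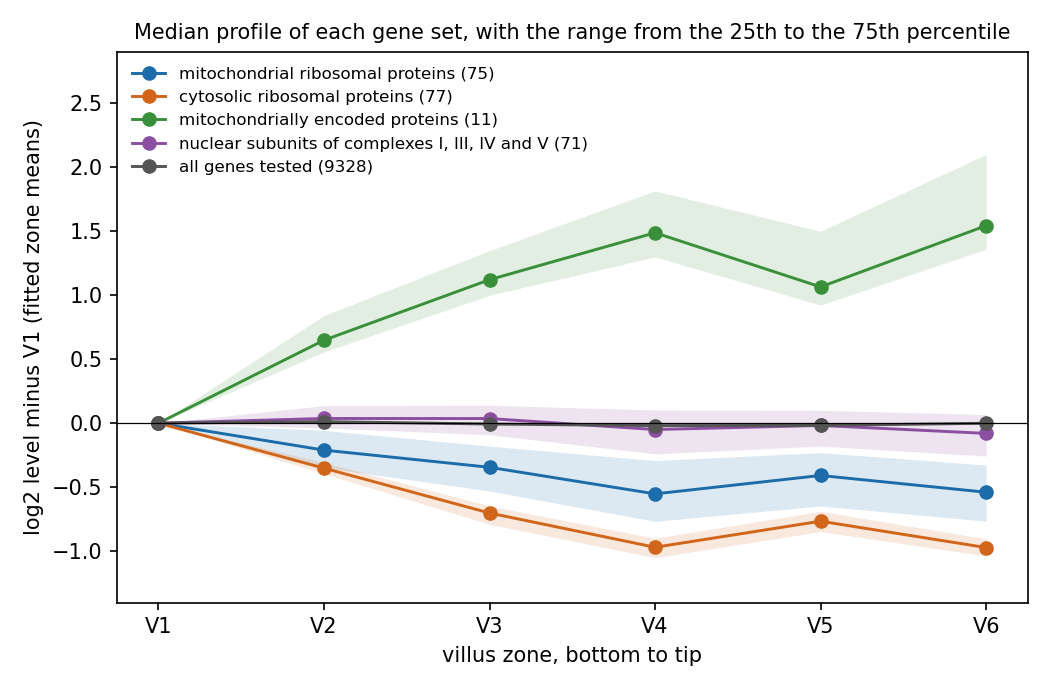
Median log2 level relative to V1 over 5 gene sets, by villus zone from bottom to tip, with a band from the 25th to the 75th percentile of the genes for 4 of the sets. The 75 genes of the family reach -0.55 in V4 and -0.54 in V6, the 77 cytosolic ribosomal protein genes -0.97 in both, the 11 mitochondrially encoded genes 1.49 and 1.54, and the nuclear respiratory subunits stay near the line of all genes.

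The genes outside the family whose zone means were most like its summed level were Ran, Pebp1, Gm8213, Rpl37 and Gm15536, with a Pearson's r of 0.999 each over the 6 zone means of log2 CPM. Ran, a small GTPase of nuclear transport, went from 187 to 106 CPM between V1 and V6, and Pebp1, a phosphatidylethanolamine-binding protein, from 87.3 to 44.7 CPM. They were picked from 2684 genes whose mean reached 50 CPM, of which 443 had an r above 0.95, so a profile of this shape was common.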

How the data were processed

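Per the labels' protocols, mcSCRB-seq captured polyadenylated RNA of each library. One table deposited by the authors holds the raw UMI count of each gene in the 24 libraries. The submitters' processing notes name bcl2fastq 2.15.0.4 and the build GRCm38. The aligner, annotation release, strand setting and filters were not given in the sources used. Library totals ranged from 806541 to 2266261, and 131 of the 17811 rows had no count. The count of molecules limits the precision of the genes with few UMIs.

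The main test was that of edgeR 4.0.16 (R 4.3.3). Low counts were removed with filterByExpr, given the zones (minimum count 10, minimum total 15), and libraries were scaled by TMM. The robust quasi-likelihood fit used all 24 libraries, 1 mean for each zone and 18 residual degrees of freedom. Contrasts were the slope over equally spaced zones, V6 minus V1, V4 minus V1, V6 minus V4, single steps, the pace of the upper against the lower part and any difference. A call needs an adjusted p (Benjamini-Hochberg, over all genes tested) under 0.05. Intervals cover 95%. Coordinates are from GENCODE M21 on GRCm38. Figures were drawn with matplotlib 3.10.9.

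The members and the gene lists were chosen with earlier results of these data known. Genes are named by rule: up to 10 called members with the largest slopes each way (mean of at least 10 CPM, same sign in all 4 mice), up to 5 with the smallest adjusted p in each other contrast and direction, the 6 with the highest level, the Mrps18 paralogs, Mrps36, and up to 4 per other list. Genes named outside it are said to be so, and some that the rule selects in other lists are given by count only.

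Zones with the same number come from the same mouse, per the labels. Within a mouse, libraries deviated together from the means of their zones: r averaged 0.422 (lowest 0.184, above 0.1 in 60 of 60 pairs). The fit with the mouse as a block has 15 residual degrees of freedom. The deposited index column, read as a pool label, which its header does not state, put 7, 5, 6 and 6 libraries in 4 pools that follow the mice apart from V1 of mouse 2. Pool and mouse therefore largely cannot be told apart, and the slopes within mice are within-pool values for mice 1, 3 and 4. No library was a copy: in the 36 same-zone pairs the chi-square per degree of freedom was 3.35 to 27.5, where sampling noise alone gives 1. Alternatives were the block, DESeq2 size factors, total UMI scaling, no filter on low counts, a floor of 20 CPM on the mean, DESeq2 1.42.0, limma-voom of limma 3.58.1, thinning to the smallest library, removal of mitochondrially encoded and goblet genes before scaling, leaving out each mouse, library, V1, or V1 and V2, and V1 and V6 alone.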

Additional observations from a re-analysis of the deposited data

Results flagged for a closer look

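In 156 groups of 4 libraries (1 gene or sum in 1 zone), 6 had a library far from the other 3, with a gap, as a share of the group's range, above the critical value of Dixon's test at 95%. Chance gives about 1 in 20 such groups. Mrpl11 in V1 was 53.2 CPM in mouse 3 and 43.5 to 44.8 CPM in the others. Mrpl37 in V3 was 44.3 CPM in mouse 2 against 21.3 to 24.5 CPM, and the family's summed level in V3 was also highest in mouse 2, at 4943 CPM against 4475 to 4538 CPM. Mrps30 in V4 was 14.0 CPM in mouse 3 against 25.2 to 27.2 CPM. Mrpl52 in V2 was 214 CPM in mouse 1 against 157 to 165 CPM, above its own V1 value of 199 CPM. Mrps21 in V6 was 169 CPM in mouse 1 against 137 to 142 CPM.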

How the results depend on the processing

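In the 40 alternative settings that give a slope, it was called higher in 0 genes of the family. Over all genes, the higher calls ran from 222 of 8643 over V3 to V6 to 2572 of 9328 with the replicate block. Most of these settings refit the same libraries without 1 mouse or library, so they are not independent of one another. Without 1 mouse or library, the number of genes called lower was 34 to 55 for the slope (53 with all libraries), 27 to 49 for V6 minus V1 (48) and 23 to 46 for V4 minus V1 (45), and any difference was called in 11 to 37 (35). Over all genes, the ends of the slope range were 1293 of 9263 lower without mouse 1 and 2230 of 9568 without V5 of mouse 2. For V6 minus V1 they were 982 of 9263 without mouse 1 and 1788 of 9524 without V2 of mouse 2. The lowest counts of the family were those without mouse 1, except for V4 minus V1. That contrast gave 23 without mouse 4 (against 952 of 9445 genes) and 28 without V4 of mouse 3 (against 1032 of 9559). Fewer samples entered these fits. Without mouse 3 or 4, any difference was called in 14 and 12, near the all-gene shares given above. The slope over V2 to V6 was called lower in 5 genes and over V3 to V6 in 0, with the all-gene shares given above. Over V3 to V6 with the replicate block it was lower in 0 (against 75 of 8643 genes). Total UMI scaling called V4 minus V1 lower in 69 (against 2999 of 9328 genes), any difference in 62 and the pace higher in 1. The pace was called higher in 1 gene with a mean of at least 20 CPM and in 9 with the replicate block, which moved no other count of the family by over 1.5 times. Any difference was called in 22 genes with no filter and 16 after thinning. The counts of any difference and pace under total UMI scaling, the 20 CPM floor, no filter and thinning have no all-gene share beside them. They are not read as results about the family. For Mrps36 the slope turned to -0.034 with total UMI scaling, -0.011 after thinning, -0.022 over V3 to V6 and -0.019 there with the replicate block, and V6 minus V1 to -0.11 with total UMI scaling, none of them called. The causes were not tested beyond the smaller number of samples. Genes below 20 CPM (8 of 75) are limited by depth.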

Other observations

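Of the 75 genes, 25 share exon bases with another counted gene, among them 17 of the 53 that fell. Besides the pairs named with their genes above, Mrpl46 and Mrps11 share exon bases with each other. Rows of pseudogenes outside the family held reads as well: Mrpl23-ps1 held 3322 UMIs, more than Mrpl23 itself with 1480, and Mrpl48-ps held 114 against 1442 for Mrpl48. Values of Mrpl23 and Mrpl48 are uncertain to that extent.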
